A study of Lotus japonicus with 36 samples.

Results

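The loci described here are 300 late fallers of the Lotus japonicus root nodule, genes whose transcript level was not yet 2-fold below the untreated level on days 1 to 4 of nitrate supply and was at least 2-fold lower by day 6. They were chosen by measured values. One transcript model was kept for each of 41299 loci, the one with the highest mean FPKM (fragments scaled by model length and library size) over all 36 libraries. A locus had to have a T0 mean of 5 to below 200 FPKM, and 1 was added to each group mean before ratios were taken. Each of T1 to T4 had to lie above T0 divided by 2, and the lowest of T0 to T4 had to be at least 2 times T6. These conditions were met by 425 loci, and the 300 with the highest ratio of the lowest of T0 to T4 over T6 were kept. The last locus kept had a ratio of 2.20 and the next one 2.19, so this limit is no natural gap.

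All groups are nodules of the accession MG-20, the genotype given for every library, and each is 3 libraries that the series calls biological replicates. Nodules of T1 to T6 had received 10 mM KNO3 for 1 to 6 days. Those of R1 to R5 were taken 1 to 5 days after the KNO3 had been withdrawn. T0 is the control without treatment, taken 4 weeks after inoculation. The labels do not say on which nitrate day removal began, and no later untreated group was analysed here, so treatment time and nodule age cannot be told apart. Whether the 3 libraries of a group come from separate plants is not stated. The p-values rest on the spread between libraries within groups, estimated in 1 fit over all 12 groups and not for each group alone.

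Legume nodules house rhizobia that fix nitrogen in exchange for plant carbon. Supply of nitrate is known to lower nitrogen fixation in formed nodules, with loss of leghemoglobin and, if it lasts, a senescence-like decline of the infected tissue, and nodules can regain function once nitrate is gone. The groups follow both the supply and the removal of nitrate day by day. The IDs of the files could not be paired with gene names, because none of them is in the only gene table at hand, which is of another assembly. No function is therefore given to any locus, and the nodule label could not be checked against marker genes.

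Library totals lay between 34194054 and 45795038 estimated counts, and all 300 members passed the filter on low counts. Within groups, log2 CPM of library pairs correlated with r between 0.945 and 0.976 over models, which are not independent replicates. The lowest values were 0.945 for replicates 1 and 2 of R5 and 0.951 for replicates 1 and 2 of R4. The late fallers took 1.28 ± 0.10% of all counts in T0, 1.54 ± 0.06% in T1, 0.974 ± 0.084% in T4, 0.534 ± 0.045% in T5 and 0.291 ± 0.050% in T6 (SD, n = 3 each). After removal their share was 0.371 ± 0.025% in R1, 0.685 ± 0.050% in R2 and 0.486 ± 0.046% in R3. R4 stood at 0.536 ± 0.074% and R5 at 0.861 ± 0.091%. In whole nodules, fewer cells of a type and less RNA per cell cannot be told apart.

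On the nitrate days, whose values chose the members and are given as a description, the late fallers did not hold a flat level. Their median level was 24.4 FPKM in T0, 26.9 in T1, 27.2 in T2, 19.4 in T3, 18.4 in T4, 9.57 in T5 and 4.77 in T6. The highest of the means of T0 to T4 lay in T1 for 123 members, in T2 for 114, in T0 for 52, in T3 for 9 and in T4 for 2, Lj3g3v0838300.1 and Lj0g3v0330909.1, which are named after their values had been seen. The lowest of these means lay in T4 for 165 members, in T3 for 64, in T0 for 57, in T1 for 8 and in T2 for 6. Most late fallers were thus highest early in the nitrate course and already lower, within the 2-fold allowance of the rule, on days 3 and 4. The same counts were not made over all loci in the T0 range, so how far this is particular to the members is not shown.

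Measured against T0, the median difference of the late fallers in log2 of (mean FPKM + 1) was 0.26 in T1, 0.15 in T2, -0.24 in T3, -0.45 in T4, -1.22 in T5 and -1.98 in T6. Over the 14317 loci with a T0 mean in the same FPKM range the medians were 0.06, 0.09, 0.08, -0.06, -0.12 and -0.32 on the same days. In T1, 136 members had every library above every T0 library, against a share of 27.3% of the loci in that range. The rule also set a lower limit on T1 relative to T0, so this contrast is not independent of the choice. In T4, 169 members had every library below every T0 library, against 38.9% of the loci in that range, a contrast that the rule itself used. The T3 libraries were far apart: the median member lay at 0.04, -0.30 and -0.61 in T3 replicates 1, 2 and 3 relative to T0.

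**Figure D1:**
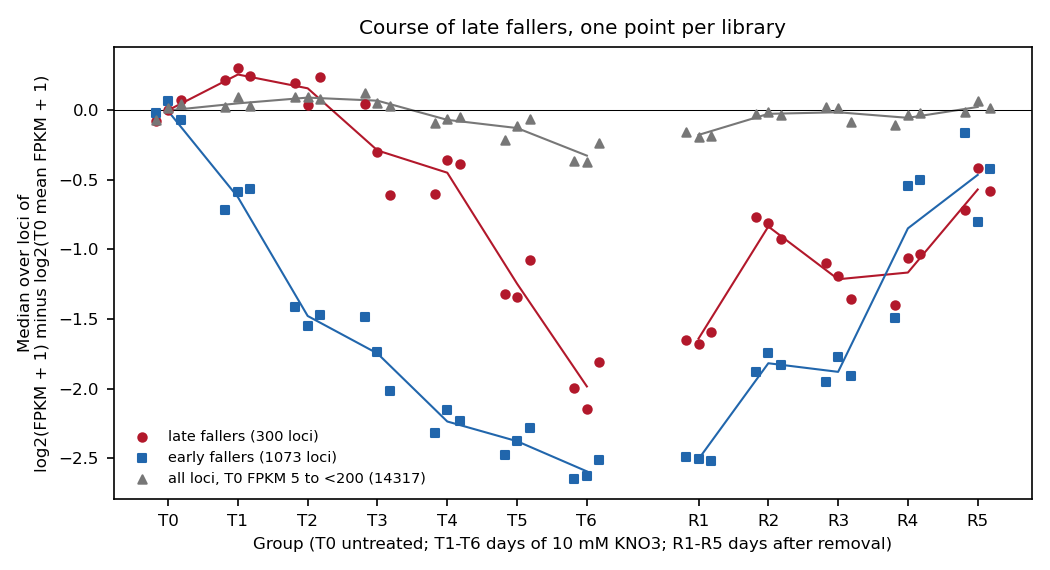
Median over loci of log2(FPKM + 1) relative to the T0 mean, one point per library, for the 300 late fallers, 1073 early fallers (at least 2-fold below T0 in both T2 and T6) and all 14317 loci with a T0 mean of 5 to below 200 FPKM, with lines through the means of the 3 libraries. The late fallers lie near or above 0 in T1 and T2, at -1.81 to -2.15 in T6, and after removal show a local peak in R2, between -0.77 and -0.93.

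Day 5 was not part of the rule, but T0, T4 and T6 were, and T6 was chosen to be low. The choice itself thus favoured a T5 between T4 and T6, and the values here are a description. T5 lay between T4 and T6 in 292 of 300 members. At the median, 67.0% of the FPKM lost between T4 and T6 was already lost in T5, with quartiles of 54.4% and 79.0%. For these 2 results no value over the range loci was computed. Every T5 library was below every T4 library in 248 members, against 22.8% of the loci in the same T0 range, but T4 also helped to choose the members and no test is given. All T5 libraries were below all libraries of T0 to T4 in 222 members, against 11.8% of the range loci. In 194 members T5 was at least 2-fold below T0, against 19.6% of the range loci. A T5 mean above T0 was found in 2 members, Lj4g3v1154250.2 and Lj0g3v0185199.1, named after their values had been seen, against 44.8% of the range loci.

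The low level of T6 was shared by its libraries. All T6 libraries were below all 15 libraries of T0 to T4 in 292 members, against 27.1% of the loci in the same T0 range, and the rule used this contrast. T6 was the lowest of all 12 groups in 226 members, R4 in 33, R3 in 23 and R1 in 17, counts that were not made over the range loci. The median T6 level was 20.8% of T0, and it ranged from 3.44% to 44.8%.

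The member with the steepest loss by the rule was Lj5g3v2288960.1, a model of 3127 bp. It had 114.2, 115.1 and 132.0 FPKM in the T0 libraries, 132.9, 128.7 and 142.3 in those of T2 and 74.2, 57.9 and 53.9 in those of T4. In T5 it had 17.7, 12.9 and 24.9 FPKM and in T6 7.16, 5.99 and 7.84 FPKM. The groups T4, T5 and T6 did not overlap, and T2 overlapped T0. After removal it averaged 13.9 ± 0.8 FPKM in R1, 35.1 ± 3.7 in R2 and 23.7 ± 2.9 in R3 (SD, n = 3 each). R4 averaged 17.0 ± 4.6 FPKM and R5 53.7 ± 9.5 FPKM (SD, n = 3 each). R5 exceeded R1 (log2 fold change 1.78 ± 0.21, SE, edgeR adjusted p = 9.47e-08), and R2 exceeded R1 (1.18 ± 0.21, SE, edgeR adjusted p = 0.000288).

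The member with the next steepest loss, Lj0g3v0252959.1 of 2498 bp, had 2.07, 1.77 and 2.90 FPKM in T6, and 31.3, 36.1 and 47.5 FPKM in T0. Its T1 libraries, at 66.4, 53.2 and 59.6 FPKM, lay above all others of the course. After removal it had 5.51, 4.80 and 4.06 FPKM in R1, 23.4, 19.4 and 13.6 in R2 and 8.04, 9.30 and 9.18 in R3. Between R2 and R1 and between R3 and R2 no libraries overlapped. The log2 fold change of R2 over R1 was 1.81 ± 0.21 (SE; adjusted p = 1.86e-06 in edgeR). That of R3 over R2 was -1.04 ± 0.21 (SE; adjusted p = 0.00426 in edgeR).

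How many loci meet the rule depends on the scale. In T6 the median locus of the T0 range differed from T0 by -0.32 in log2 of (mean + 1) on the deposited FPKM scale. The difference was -0.13 when counts per length were rescaled with TMM library factors, which correct for a few abundant transcripts taking up reads. For the late fallers the medians were -1.98 and -1.84. On the TMM scale 195 loci met the conditions in place of 425, and 191 of the 300 members were among them. On the TMM scale, 293 of 300 were still at least 2-fold below T0 in T6. The medians on days 3 and 4 were -0.43 and -0.56 on that scale.

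Tests were made only between groups that the rule did not use, T5 and R1 to R5. The members were still chosen to be high in T0 to T4 and low in T6, so the results are not free of the choice. They rest on edgeR's quasi-likelihood test over 50475 models in all 36 libraries, and a call needs a Benjamini-Hochberg adjusted p under 0.05 and at least a 2-fold difference. The comparison of R1 with T5 asks whether the members stood lower at the start of removal than on day 5 of nitrate. A choice for high T4 and low T6 could itself favour an R1 below T5, if R1 stayed near T6. In log2 of (mean FPKM + 1), R1 minus T6 had a median of 0.33 in the members, against 0.14 in the range loci. Late fallers were lower in R1 in 27 of 300 cases and higher in 0. Of all models tested, 2.3% were called lower and 1.38% higher, and of the loci in the T0 range 1.52% and 1.85%. The median log2 fold change of the members was -0.29, against 0.08 in the loci of the T0 range. It was -0.16 without T5 replicate 1 and -0.41 without T5 replicate 2. No member was called higher by DESeq2 either, and 7 members had an unadjusted p under 0.05 in that direction by edgeR. Every R1 library was below every T5 library in 117 members, against 19.3% of the range loci.

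Among called members with at least 10 CPM in T5 and no overlap of libraries, the 2 largest falls between R1 and T5 belong to neighbouring IDs, Lj4g3v2020620.1 (724 bp) and Lj4g3v2020610.1 (1167 bp). Lj4g3v2020620.1 had 5.43, 8.4 and 8.15 FPKM in R1, and 28.3, 24.4 and 25.8 FPKM in T5 (log2 fold change -1.70 ± 0.38, SE; adjusted p = 0.00594 in edgeR). It had 26.1, 27.0 and 37.3 FPKM in T0, overlapping T5, and 5.51, 10.1 and 6.54 FPKM in T6. Lj4g3v2020610.1 had 6.08, 9.69 and 9.21 FPKM in R1, and 27.9, 31.5 and 28.0 FPKM in T5 (log2 fold change -1.66 ± 0.40, SE; adjusted p = 0.00984 in edgeR). Without R1 replicate 1 this call was lost (edgeR adjusted p = 0.0648). Only 36.1% of the count values of each model were whole, so some reads were counted in fractions. Which models share them is not shown, and whether these are separate falls was not tested. Both were high in R4 replicate 1, at 65.6 and 77.8 FPKM.

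On removal day 2 part of the late fallers stood higher than on day 1. Late fallers were higher in R2 than in R1 in 67 of 300 cases and lower in 0, where 4.09% of all models were called higher and 2.57% lower, and of the range loci 5.94% and 2.09%. The median log2 fold change was 0.68 in the members, against 0.01 in the range loci, and 288 of 300 fitted values were positive. Every R2 library was above every R1 library in 234 members, against 36.4% of the range loci. The members were chosen for a loss by T6, which most range loci did not share to that depth, so these shares are not like for like. No member was called lower by DESeq2 either, and 0 members had an unadjusted p under 0.05 in that direction by edgeR.

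On removal day 3 some late fallers were lower again. Late fallers were lower in R3 than in R2 in 27 of 300 cases and higher in 0, where 0.479% of all models were called lower and 0.622% higher, and of the range loci 0.692% and 1.17%. The median log2 fold change was -0.40 in the members, against 0.01 in the range loci. No member was called higher by DESeq2, and 3 had an unadjusted p under 0.05 in that direction by edgeR. The count of 27 was 12 without R2 replicate 1 and 16 without R3 replicate 2. In 270 members the R2 mean exceeded both the R1 and the R3 mean, against 41.1% of the range loci. Every R3 library was below every R2 library in 167 members, against 13.1% of the range loci.

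Between R4 and R3 the late fallers moved little as a group. They were higher in R4 in 27 cases and lower in 4, where 6.29% and 2.33% of all models and 8.56% and 1.06% of the range loci were called. The median log2 fold change was 0.22 in the members, against 0.05 in the range loci. The share of members called higher thus lay near that of the range loci. Every R4 library was above every R3 library in 60 members and below in 50, against 18.3% and 23.6% of the range loci. The 4 members called lower, named after their values had been seen, were Lj3g3v2723890.1, Lj0g3v0330909.1, Lj1g3v4483900.1 and Lj6g3v2006600.1. The last of these averaged 1.46 FPKM in R4 and 3.34 in R3 (log2 fold change -1.10 ± 0.17, SE; adjusted p = 4.1e-05 in edgeR). R4 replicate 1 lay lower than the others, with the median member at -1.40 relative to T0, beside -1.06 and -1.04 in replicates 2 and 3. Without it 38 members were called higher and 4 lower. Without R4 replicate 1 the median log2 fold change was 0.33, and without R4 replicate 3 it was 0.14.

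Day 5 of removal was higher again. Members were higher in R5 than in R4 in 36 cases and lower in 3, where 1.29% and 2.91% of all models and 1.34% and 2.73% of the range loci were called. The median log2 fold change was 0.46, against -0.06 in the range loci. Every R5 library was above every R4 library in 188 members, against 18.3% of the range loci. The 3 members called lower were Lj4g3v2020620.1 and Lj4g3v2020610.1, whose R4 replicate 1 stood above all their other libraries, and Lj0g3v0185199.1. A fit of the R5 and R4 libraries alone called 0 members and 0 of 43582 models in either direction. The median log2 fold change in that fit was 0.47 in the members, against -0.06 in the range loci. Why the calls of the 2 fits differ was not tested. In the fit of all groups the 36 calls were 26 without R4 replicate 1 and 48 without R4 replicate 3.

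**Figure D2:**
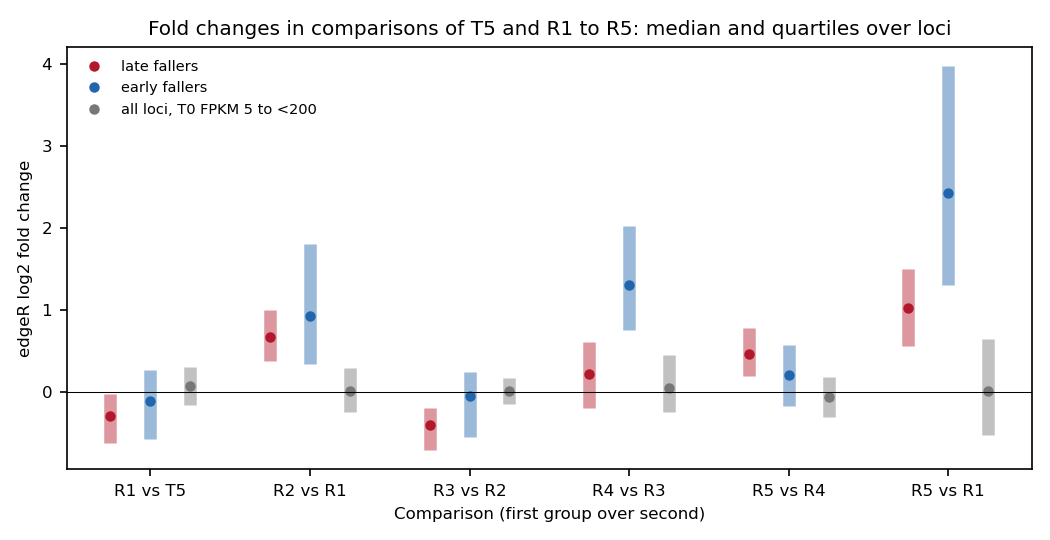
edgeR log2 fold changes in the 6 tested comparisons (first group over second), with the median as a point and the quartiles as a bar, for late fallers, early fallers and all loci with a T0 mean of 5 to below 200 FPKM. The late fallers' median is at -0.29 in R1 vs T5, 0.68 in R2 vs R1, -0.40 in R3 vs R2 and 0.46 in R5 vs R4, while the median of all range loci stays between -0.06 and 0.08 in all 6.

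Over the whole removal course the comparison of R5 with R1 asks how far the late fallers came back. They were higher in R5 in 151 of 300 cases (50.3%) and lower in 2, where 14.3% and 11.4% of all models and 16.5% and 10.2% of the range loci were called. The median log2 fold change was 1.02, with quartiles of 0.56 and 1.5, against 0.01 in the range loci. Every R5 library lay above every R1 library in 227 members, against 41.4% of the range loci. The rule chose loci with a loss to regain, so these shares are not like for like. In log2 of (mean FPKM + 1) relative to T0, the R1 median was -1.62 in the members and -0.17 in the range loci. Among the 193 members with no other member next to them in ID order, 109 (56.5%) were called higher. Among the 90 members whose counts were whole in every library, 48 (53.3%) were called higher.

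By the same limits on CPM and overlap, the largest rises between R5 and R1 were those of Lj5g3v1533340.1 (3381 bp) and Lj5g3v1886260.1 (2034 bp). Lj5g3v1886260.1 had 58.7, 101.8 and 87.3 FPKM in R5, and 9.79, 8.0 and 12.4 FPKM in R1 (log2 fold change 2.84 ± 0.20, SE; adjusted p = 4.9e-11 in edgeR). Its R5 libraries spanned its T0 values of 66.05, 81.3 and 74.2 FPKM. It was lower in R3 than in R2, at 10.95, 8.85 and 9.19 FPKM in R3 and 24.5, 22.0 and 19.5 FPKM in R2 (log2 fold change -1.15 ± 0.19, SE; adjusted p = 0.00099 in edgeR). Its counts were mostly not whole, so some reads were counted in fractions, and which models share them is not shown.

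Lj5g3v1533340.1 had 58.3, 97.3 and 92.7 FPKM in R5, and 8.71, 10.6 and 10.7 FPKM in R1 (log2 fold change 2.85 ± 0.65, SE; adjusted p = 0.000649 in edgeR). It varied widely within most groups: its T1 libraries held 32.2, 141.0 and 50.5 FPKM and its T3 libraries 147.9, 37.5 and 48.4 FPKM. In T6 it had 7.30, 8.19 and 12.7 FPKM.

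Both members called lower in R5 than in R1 are again neighbours in ID order, Lj0g3v0124309.1 (786 bp) and Lj0g3v0124299.1 (1990 bp). Lj0g3v0124309.1 had 0.280, 4.17 and 0.950 FPKM in R5, and 13.2, 8.78 and 15.95 FPKM in R1 (log2 fold change -3.06 ± 0.52, SE; adjusted p = 1.86e-05 in edgeR). Its mean was highest in T3, at 39.8, 32.5 and 33.1 FPKM, against 17.2, 15.3 and 19.6 FPKM in T0. It was low in T6, at 4.16, 2.18 and 2.73 FPKM, and on days 3 to 5 of removal it was near or under that level again. Lj0g3v0124299.1 had 0.160, 1.91 and 0.480 FPKM in R5, and 5.96, 3.99 and 7.2 FPKM in R1 (log2 fold change -2.99 ± 0.48, SE; adjusted p = 1.12e-05 in edgeR). Of their count values 2.78% and 0% were whole, so reads were counted in fractions. Which models share them is not shown, and whether these are separate losses was not tested.

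**Figure D3:**
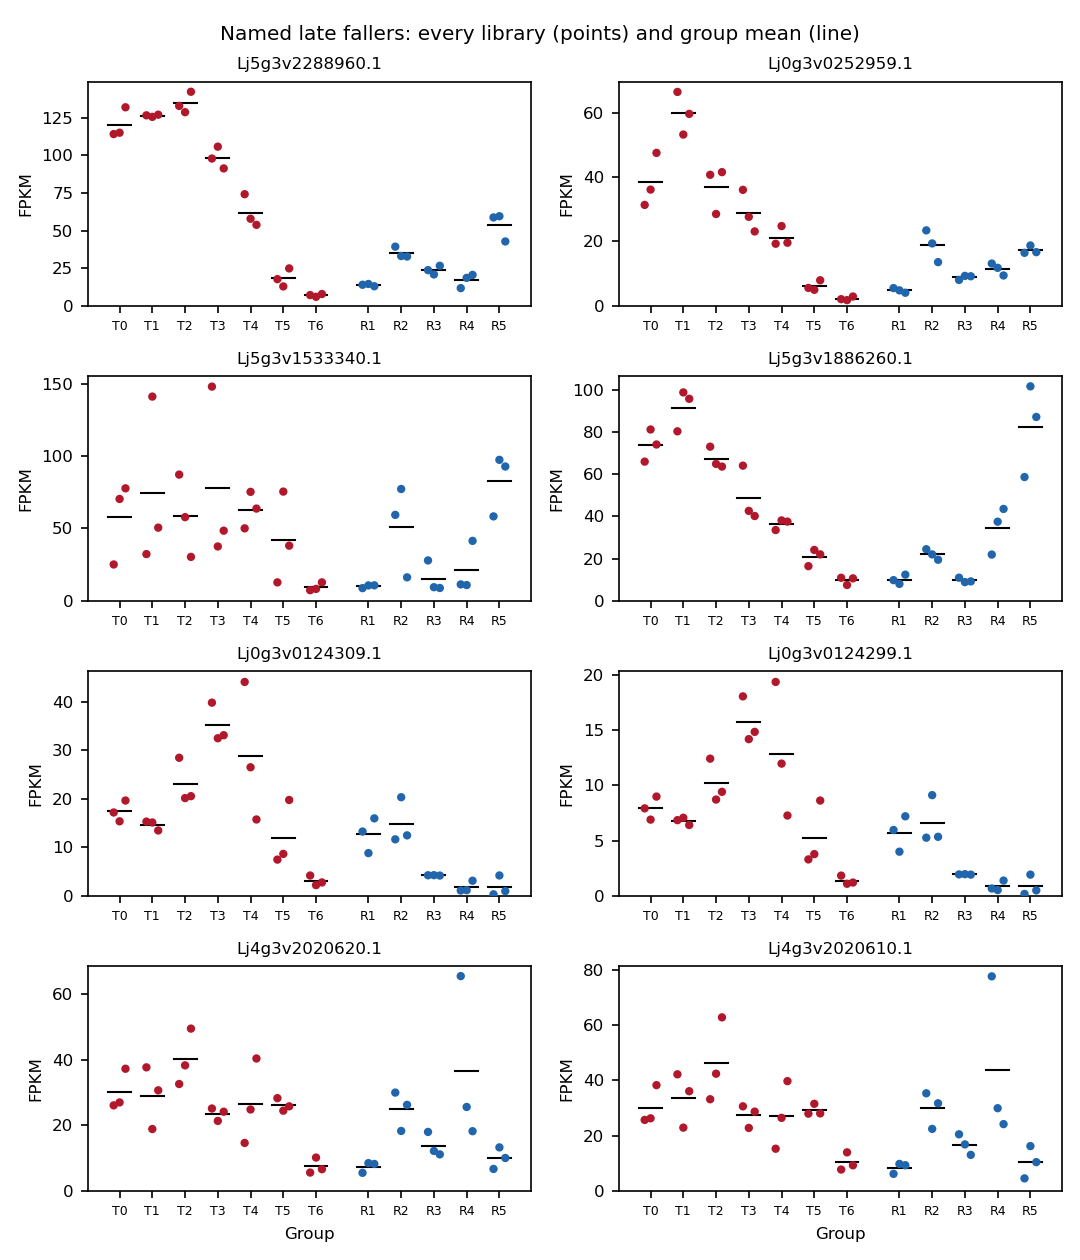
FPKM of the 8 named late fallers in every library (points; red for T0 to T6, blue for R1 to R5), with the group mean of 3 libraries as a line; each panel has its own axis from 0. Lj5g3v1886260.1 reaches 58.7 to 101.8 FPKM in R5, whereas Lj0g3v0124309.1 lies at 0.280 to 4.17 FPKM there.

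Set beside T0 as a description, since T0 chose the members, R5 remained lower in most late fallers. The median R5 level was 66.3% of T0 (quartiles 52.9% and 80.6%), after 29.1% in R1, 53.8% in R2, 39.4% in R3 and then 42.1% in R4. At the median 57.4% of the FPKM lost between T0 and T6 had been regained in R5. In 51 members R5 was still at least 2-fold below T0, against 4.09% of the range loci, and in R1 this held for 263, against 21% of the range loci. On the TMM scale these numbers of members were 66 and 257. Between these days it held for 109 members in R2, 193 in R3 and 182 in R4, against 13.8%, 14.9% and 9.34% of the range loci. In 20 members the R5 mean exceeded T0, against 53.6% of the range loci, and every R5 library was below every T0 library in 204, against 20.4%. R5 was the highest of the removal days in 195 members and R2 in 91, against 33.3% and 17.5% of the range loci.

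**Figure D4:**
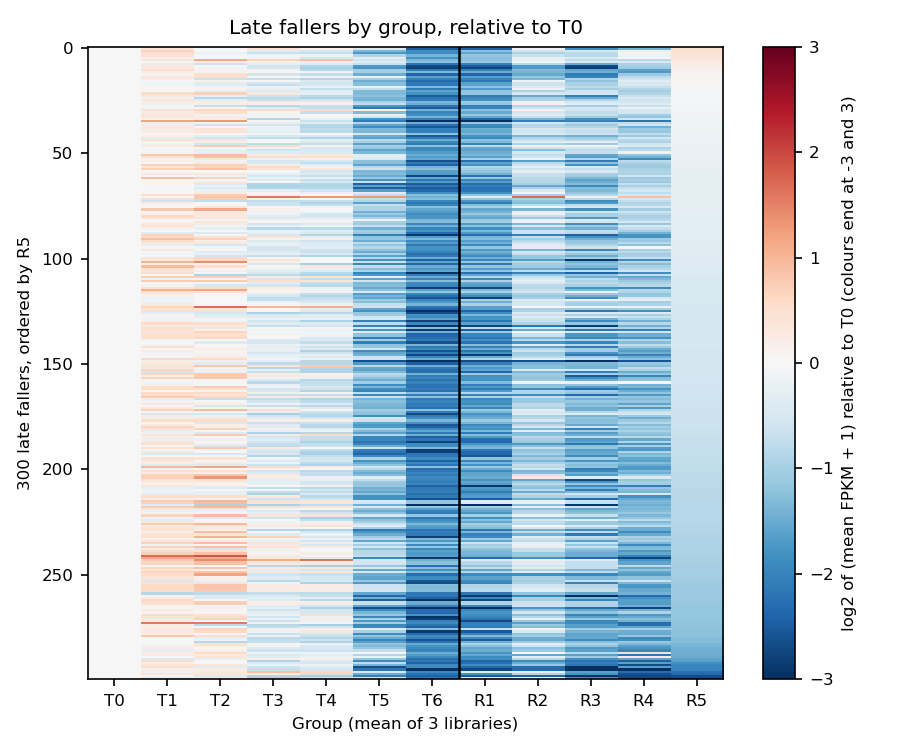
log2 of (mean FPKM + 1) relative to T0 for each of the 300 late fallers (rows, ordered by R5) in the 12 groups (columns; the line separates nitrate from removal days). Blue deepens from T5 to T6, lightens in R2, deepens in R3 and lightens in R5, where the median is -0.55.

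Within the late fallers, 79 members reached at least 1.5 times T0 on one of days 1 to 4, a split made after the values had been seen and given without a test. Their median log2 difference from T0 was 0.63 in T1, 0.79 in T2, 0.13 in T4, -0.73 in T5 and -1.48 in T6, and 221 other members had 0.13, 0.02, -0.55, -1.34 and -2.07. After removal the 79 were at -1.19 in R1, -0.63 in R2, -1.27 in R4 and -0.62 in R5, and the 221 at -1.77, -0.90, -1.10 and -0.53. Lj0g3v0185199.1, of 964 bp, was named above for its T5 level. It averaged 8.86 FPKM in T0, 23.4 in T5 and 2.69 in T6, then 6.98 in R1, 31.1 in R2 and 9.90 in R3. It was lower in R1 than in T5 (log2 fold change -1.60 ± 0.29, SE; adjusted p = 0.00101 in edgeR) and higher in R2 than in R1 (2.00 ± 0.29, SE; adjusted p = 3.14e-05 in edgeR).

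Length, number of models and whole counts of the late fallers lay near those of the range loci. Their median model length was 1124 bp, against 1099 bp in all range loci, and 260 (86.7%) had a single model at their locus, against 85.5%. The share with whole counts in every library was 30% in both. The median coefficient of variation between the 3 libraries was 25.2% in T6 and 10.5% in T0, and in the range loci it was 13.7% in T6 and 10.7% in T0. In the early fallers it was 27.0% in T6 and 12.1% in T0. The median T6 level was 4.77 FPKM in the late fallers and 12.3 FPKM in the range loci. Whether the variation goes with the level was not tested. By the prefix of the ID, 83 members (27.7%) carried Lj0, against 29.5% of the range loci, and the shares of Lj1 to Lj6 lay between 7% and 19%, against 7.61% to 17.2%.

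Late fallers often lay next to each other in ID order. Of the 600 places directly before or after a member, 309 held a locus of the T0 range, and 132 of those (42.7%) were themselves members, whereas members are 2.10% of the range loci. Early fallers filled 8 of the 309 places (2.59%), while they are 7.49% of the range loci. The 2 lists share no locus, so the 132 places held by members were closed to early fallers. These 2 shares are therefore not like for like. The places form 66 pairs and involve 107 members, and 20 pairs carry the prefix Lj0. Over the 18 libraries of T5 and R1 to R5, in which both loci of a pair are measured in the same libraries, the log2 levels of a pair correlated with a median r of 0.936 (0.265 to 0.998). Most members share much of 1 course over these groups, and no r was computed for members that are not neighbours. The value does not show that neighbours are more alike than other members. Only 4 pairs had whole counts in both models. The part of shared reads and of split gene models in these pairs was not tested, and the 300 members are not 300 independent measurements.

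Early fallers, the loci of the same T0 range that were at least 2-fold below T0 in both T2 and T6, numbered 1073 and give a second course on the same removal days. This list was set with the results known. In R5 against R1, 50.3% of late fallers and 80.9% of the 1072 tested early fallers were called higher, with median log2 fold changes of 1.02 and 2.42. With 1 FPKM added to the means, the median differences were 1.07 and 2.02. Relative to T0 on that scale, the medians were -1.62 and -2.48 in R1, and -0.55 and -0.44 in R5. The early fallers thus rose from a lower level to a similar one. In R2 against R1 the shares higher were 22.3% and 40.1%, with medians of 0.68 and 0.93. In R1 against T5 the shares lower were 9% and 4.10%, with medians of -0.29 and -0.12. In R4 against R3 the shares higher were 9% and 56.1%, with medians of 0.22 and 1.30. In R3 against R2 the shares lower were 9% and 2.05%, with medians of -0.40 and -0.04, and in R5 against R4 the shares higher were 12% and 3.82%, with medians of 0.46 and 0.21. Differences between the lists were not tested. The R5 libraries also ranked differently: the median late faller lay at -0.71, -0.42 and -0.58 in R5 replicates 1, 2 and 3 relative to T0, and the median early faller at -0.17, -0.81 and -0.42.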

How the data were processed

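RNA-seq of root nodules was analysed from 2 deposited tables with a column for each of 36 libraries in 12 groups of 3. Per the submitters' processing notes, fastp 0.22.0, HISAT2 and featureCounts were used, while genome build, annotation and strand setting were not stated there. The authors deposited estimated counts, which were rounded to whole numbers for the tests, and FPKM values per transcript model, which set the rule, the levels and, with the counts, the model lengths. The members and lists were chosen with earlier results of these data known.

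The quasi-likelihood test of edgeR 4.0.16 (R 4.3.3, TMM factors, filterByExpr, group as the only term) was run in 1 fit of all libraries. The test of R5 against R1 was also run on simulated counts. These were drawn with the spread estimated by the fit itself, the same in all groups. They cannot show effects of unequal spread between groups or of reads counted in fractions. Standard errors are the fold change over the root of F. Alternatives were RLE size factors, DESeq2 1.42.0, no filter, fits of 2 groups, a replicate block, counts summed per locus, and each library left out. A value was called whole within 0.001. Named loci were the 2 with the highest ratio in the rule and, for R5 against R1 and R1 against T5, the 2 largest rises and falls among called members whose groups did not overlap and whose higher group averaged 10 CPM or more; no rise of R1 against T5 was called.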

Additional observations from a re-analysis of the deposited data

How the results depend on the processing

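Counts of members called kept within 1.5 times their value under RLE size factors, DESeq2, no filter, summed loci and the replicate block, for all 6 comparisons in each direction. The exceptions lay elsewhere. Fits of the 2 groups alone gave 0 members higher and 0 lower in R5 against R4, in place of 36 and 3. In R3 against R2, leaving out a library gave 12 to 26 members lower in place of 27. TMM-adjusted levels left 195 loci that met the rule in place of 425, and leaving out a library of T0 to T4 or T6 gave 363 to 549, highest without T6 replicate 3. For R5 against R1, leaving out a library gave 148 to 160 members higher and 2 to 3 lower. The cause of these changes was not tested. With the replicate number as a block, 151 members were higher in R5 than in R1, 67 higher in R2 than in R1 and 23 lower in R3 than in R2. Deviations of same-numbered libraries correlated between -0.16 and 0.12. At most 4 of 6 libraries of a comparison correlated best with their own number, in R5 against R1. Pairing by number was thus not seen, but these values cannot show that the samples were not handled as numbered sets. Shares taken over members without a neighbouring member, with whole counts or meeting the rule on TMM levels, chosen after seeing the data, stayed within 1.5 times for R5 and R2 against R1 and R3 against R2. Groups of 3 limit the precision of every value.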
